A study of Mus musculus with 8 samples.

Results

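The Rbfox, Elavl and Nova genes encode RNA-binding proteins of developing and mature neurons. The 9 genes described here (Rbfox1, Rbfox2, Rbfox3, Elavl1, Elavl2, Elavl3, Elavl4, Nova1 and Nova2) were taken by gene symbol from the 32285 genes of the count matrices, and each symbol matched 1 gene. Nuclei came from mice at postnatal day 5.5, from the paraflocculus and flocculus (PF/F, lobules of the vestibulo-cerebellum) and from the petrous temporal bone (PTB), which surrounds them. In each tissue there were 2 libraries of wild-type (WT) littermates and 2 of Tbx1+/- mice, heterozygous for the transcription factor gene Tbx1. Each library was a pool of 5 mice on a C57BL/6J background, so no value belongs to a single animal. The study used 2 batches of animals of each genotype, while the labels give only a replicate number. That number is read here as the batch. The study used both sexes in its experiments, and the sexes within each pool are not given. A level is the UMI count of a gene in all nuclei of 1 type in 1 library, scaled to 1000000 UMIs of those nuclei (CPM). The cell types are those of the deposited annotation, with 48237 nuclei of 16 types in the PF/F and 31076 nuclei of 15 types in the PTB.

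Rbfox proteins bind a short element in introns and control whether nearby exons are included. Rbfox3 is the antigen that the widely used NeuN antibody stains, which labels granule neurons and most other neurons but is known to be missing from Purkinje cells. Elavl proteins bind AU-rich elements, where they stabilise transcripts and also act on splicing. Elavl1 (HuR) is found in most cells, while Elavl2, Elavl3 and Elavl4 (HuB, HuC and HuD) are neuronal. Nova1 and Nova2 bind clusters of a YCAY element and regulate exons of synaptic transcripts.

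Barcodes numbered 10583 to 21868 per library, with totals of 44713226 to 88677309 UMIs, and any pair of libraries shared at most 0.65% of the barcodes of the smaller one. Tbx1 itself stood at 38.9 and 39.4 CPM in the WT PTB libraries and at 26.3 and 35.7 CPM in the Tbx1+/- PTB libraries, and it was at 4 to 13 UMIs in each PF/F library, too few to check the labels there. Of 15 markers of the PF/F panel other than Rbfox3, 2 had their highest mean in a type other than the one they stand for: Sox6 peaked in Oligodendrocyte (2691 CPM) ahead of RL.early (626 CPM), and Wls in Meningeal (410 CPM) ahead of RL.early (374 CPM). Rbfox3 was among the markers by which the study recognised granule neurons, and all 9 genes were in the matrix that was clustered. The levels by type are therefore given as a description, with no test between types. Types next to each other in an order are called overlapping where the ranges of their 4 libraries overlap.

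Promoter sequences were at hand in RefSeq (GRCm38.p6) for 8 of the 9 genes, all but Rbfox2. Windows of 300 bases, from 250 before to 50 after an annotated start, are shown for 3 genes with different distributions over the types: Rbfox3, which was highest in granule neurons, Elavl3, which was near one level in all neuronal types, and Elavl1, which varied least. They are written 5′ to 3′ on the strand of the gene. Capitals mark the E-box CAGCTG and the TATAAA element.
Rbfox3, chr11:118760992-118761291, minus strand: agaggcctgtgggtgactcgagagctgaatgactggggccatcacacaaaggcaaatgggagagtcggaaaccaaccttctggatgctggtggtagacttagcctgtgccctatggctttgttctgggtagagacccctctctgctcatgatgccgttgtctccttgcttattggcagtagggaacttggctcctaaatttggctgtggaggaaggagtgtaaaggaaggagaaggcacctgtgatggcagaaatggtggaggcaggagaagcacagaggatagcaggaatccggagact
Elavl3, chr9:22051974-22052273, minus strand: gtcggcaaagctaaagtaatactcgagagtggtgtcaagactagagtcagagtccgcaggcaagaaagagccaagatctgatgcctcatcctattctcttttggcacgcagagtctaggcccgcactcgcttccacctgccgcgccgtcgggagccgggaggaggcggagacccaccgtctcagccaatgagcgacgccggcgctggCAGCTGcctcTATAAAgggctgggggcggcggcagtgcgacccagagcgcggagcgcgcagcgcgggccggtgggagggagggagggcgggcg
Elavl1, chr8:4325051-4325350, minus strand: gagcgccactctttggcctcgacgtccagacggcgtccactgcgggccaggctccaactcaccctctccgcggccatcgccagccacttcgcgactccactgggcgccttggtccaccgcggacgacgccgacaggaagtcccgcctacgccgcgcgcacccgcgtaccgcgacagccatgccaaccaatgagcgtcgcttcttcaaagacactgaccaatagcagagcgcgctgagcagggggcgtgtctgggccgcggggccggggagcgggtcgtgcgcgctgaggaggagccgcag

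The 3 windows differed in base composition. The Elavl1 window held 39 CpG and 70.0% G or C, and 4.45% of all 32851 windows of this length held as many CpG. The Elavl3 window held 29 CpG, a number met by 12.9% of windows, and the Rbfox3 window held 4, against a median of 7 over all windows. Elavl3 alone among the members had both elements, with CAGCTG beginning 43 bases and TATAAA 33 bases before the start. CAGCTG (a palindrome, so both strands are read at once) was found in 16.3% of all windows and in at least 1 window of 5 of the 8 members, TATAAA on either strand in 13.6% of all windows and in 1 member, and the other E-box searched, CAGATG on either strand, in 17.2% of all windows and in 1 member, Elavl4. Members with several annotated starts (Elavl2 with 6, Elavl4 with 4) had more windows in which to hold a match. The Rbfox3 window lies inside the gene as GENCODE draws it (chr11:118489762-118911597), which begins further upstream.

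In the PF/F, Rbfox1 was highest in inhibitory interneurons. Differentiated GABAergic interneurons (Diff.GABA.interneuron) held 4120 CPM in WT 1, 5857 in WT 2, 4339 in Tbx1+/- 1 and 5642 in Tbx1+/- 2, a mean of 4989 ± 887 (SD, n = 4 libraries). Both libraries of batch 2 lay above both of batch 1, and the genotypes overlapped. The second type, Progenitors, stood at 2390 ± 315 CPM (SD, n = 4) and did not overlap with its neighbours in the order. Meningeal, Diff.Granule Neuron and Astroglia had 1646, 1557 and 1418 CPM, each overlapping with the next. GNP (granule neuron progenitors) stood at 958 ± 117 CPM, below Oligodendrocyte (1229 CPM) in every library. Purkinje was lowest, at 201, 110, 175 and 174 CPM in WT 1, WT 2, Tbx1+/- 1 and Tbx1+/- 2, below the Immune mean of 503 CPM. The differentiated GABAergic interneurons were 7.5% of annotated PF/F nuclei and held 28.5% of the Rbfox1 UMIs.

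Rbfox3 followed the granule lineage. Diff.Granule Neuron had 704 CPM in WT 1, 737 in WT 2, 765 in Tbx1+/- 1 and 731 in Tbx1+/- 2, which gives 734 ± 25.2 (SD, n = 4). GNP (564 ± 28.0 CPM) lay below it in every library, and differentiated GABAergic interneurons had 245 CPM. Purkinje was again lowest, at 71.2 ± 14.0 CPM, below the Immune mean of 145 CPM. Diff.Granule Neuron held 59.8% of all Rbfox3 UMIs with 37.9% of the nuclei.

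Rbfox2, the family member known from many non-neuronal tissues, had a flatter order. Its means ran from 153 ± 18.9 CPM in Immune to 497 ± 35.0 CPM in Diff.GABA.interneuron, and 14 of the 15 steps between neighbours in the order overlapped. Meningeal (440 CPM) and Pericyte (424 CPM) came next after the top type, above Diff.Granule Neuron (390 CPM).

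**Figure D1:**
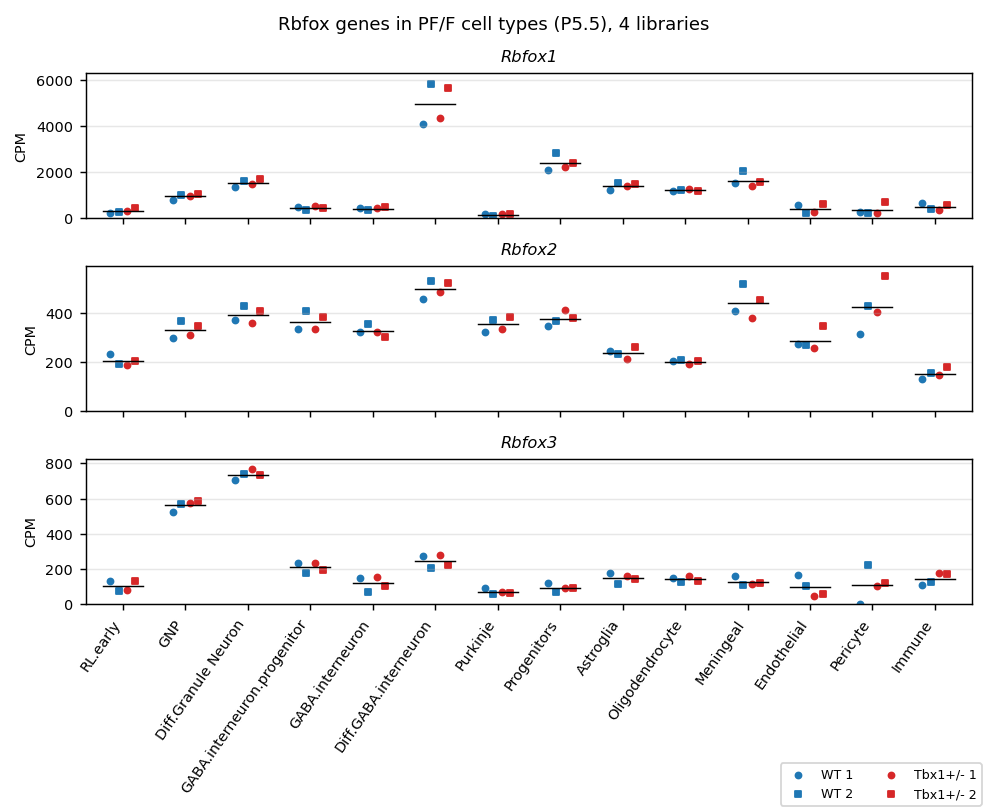
CPM of Rbfox1, Rbfox2 and Rbfox3 (linear axes from 0) in 14 PF/F types; each point is 1 library (blue WT, red Tbx1+/-, circles batch 1, squares batch 2) and each bar the mean of 4. Rbfox1 peaks in Diff.GABA.interneuron (4989 CPM), Rbfox3 in Diff.Granule Neuron (734 CPM), and both are lowest in Purkinje, while Rbfox2 spans 153 to 497 CPM.

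Elavl3 separated neuronal from other types. Its means lay between 306 and 375 CPM in 7 types, namely Progenitors, Purkinje, Diff.Granule Neuron, GNP, Diff.GABA.interneuron, GABA.interneuron and GABA.interneuron.progenitor, and in this order each overlapped with the next. In Purkinje the 4 libraries read 363, 403, 371 and 364 CPM (WT 1, WT 2, Tbx1+/- 1, Tbx1+/- 2), and in Diff.Granule Neuron 345, 393, 366 and 353 CPM. Oligodendrocyte stood apart on both sides at 212 ± 9.81 CPM, and the 6 lowest types had 81.9 to 142 CPM. Its paralogues Elavl2 (77.6 ± 14.7 CPM) and Elavl4 (26.9 ± 4.84 CPM) had means in Purkinje below their own means in Immune (162 and 100.4 CPM).

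Elavl2 and Elavl4 were each highest in GABAergic cells. Elavl2 had 871 ± 143 CPM in Diff.GABA.interneuron, 762 ± 140 in GABA.interneuron and 745 ± 75.8 in GNP, which overlapped. Diff.Granule Neuron stood at 342 ± 33.8 CPM, below GNP in every library. Elavl4 read 857, 1052, 865 and 1010 CPM in WT 1, WT 2, Tbx1+/- 1 and Tbx1+/- 2 in GABA.interneuron, a mean of 946 ± 99.6. That type did not overlap with Progenitors (414 ± 44.9 CPM), nor these with Diff.GABA.interneuron (228 ± 17.5 CPM). GABA.interneuron is a small type of 406 nuclei, with 49 in the smallest library. Its own median depth of 5259 to 8069 UMIs per nucleus was higher than that of Diff.GABA.interneuron (3083 to 4141).

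Elavl1, the broadly expressed member, had its means between 64.0 CPM (Progenitors) and 149 CPM (Endothelial, 183 nuclei in all). Among types with at least 30 nuclei in every library, GNP was highest at 140 ± 9.80 CPM. All 15 steps in its order overlapped.

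Nova1 and Nova2 differed from each other. Nova1 was highest in Oligodendrocyte, with 571, 834, 632 and 713 CPM in WT 1, WT 2, Tbx1+/- 1 and Tbx1+/- 2 (688 ± 114, SD, n = 4). GABA.interneuron (560 ± 72.0 CPM) overlapped with it, and RL.early (376 CPM) and Progenitors (349 CPM) followed. Diff.GABA.interneuron had only 112 ± 12.1 CPM and Purkinje 46.9 ± 6.09 CPM. Nova2 was highest in Diff.Granule Neuron at 143 ± 6.97 CPM and spread over 33.6 to 118 CPM elsewhere, with all 15 steps overlapping.

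**Figure D2:**
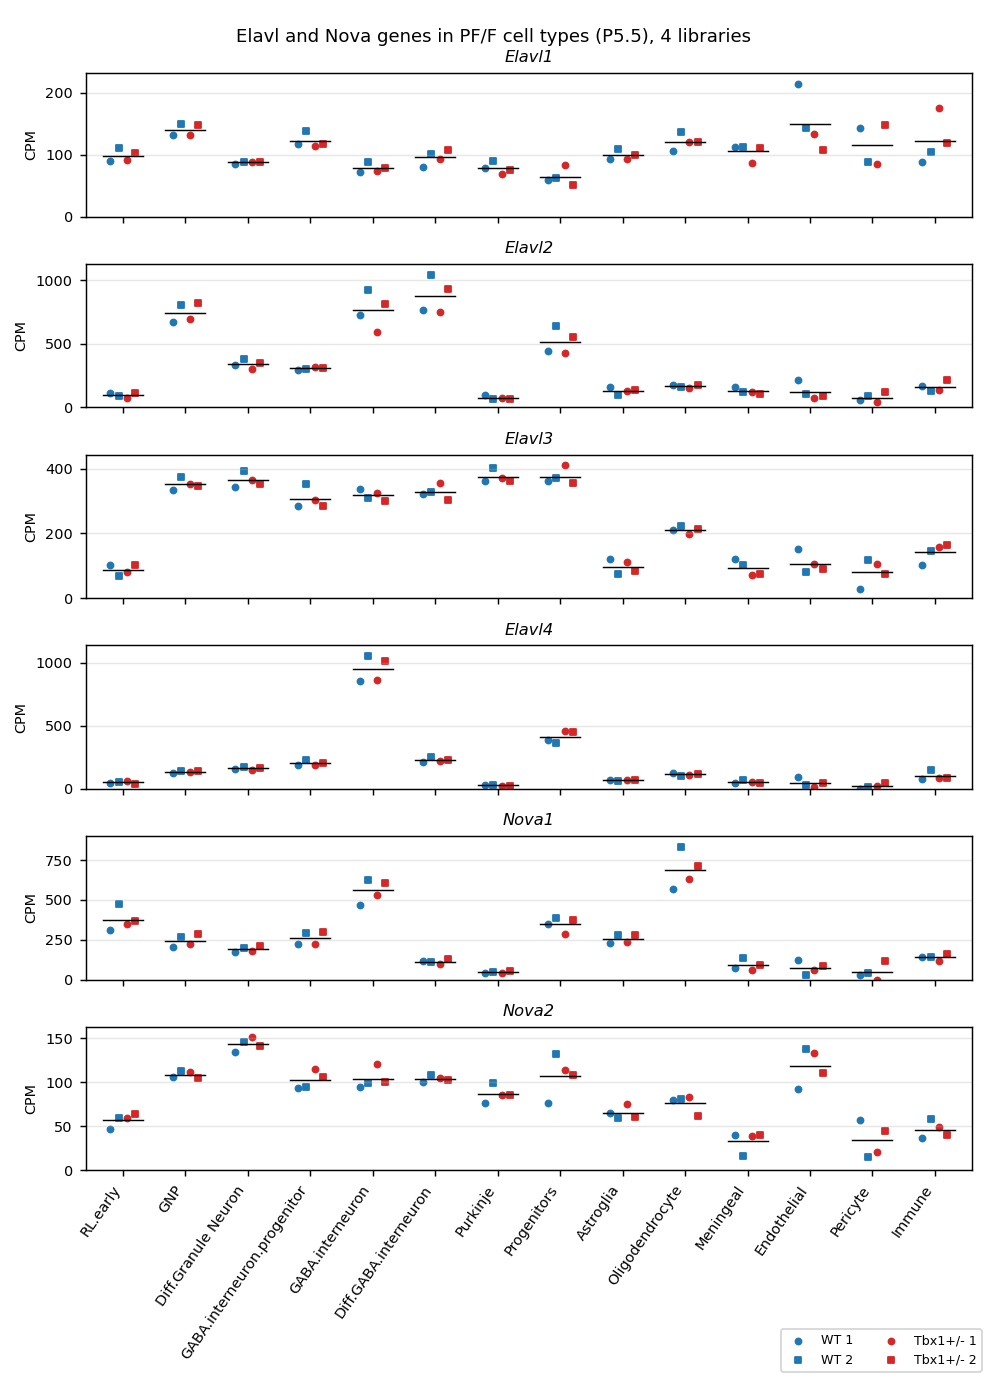
CPM of the Elavl and Nova genes (linear axes from 0) in 14 PF/F types; points are libraries (blue WT, red Tbx1+/-, circles batch 1, squares batch 2) and bars the means of 4. Elavl3 forms a plateau of 306 to 375 CPM over 7 types, Elavl4 stands out in GABA.interneuron (946 CPM) and Nova1 in Oligodendrocyte (688 CPM).

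Genes of different length give different numbers of intronic UMIs, so levels were compared between members per kilobase of gene span. On GRCm38, Rbfox1 lies at chr16:5885355-7411526 (plus strand, 1526 kb), Rbfox2 at chr15:77078990-77307004 (minus strand, 228 kb) and Rbfox3 at chr11:118489762-118911597 (minus strand, 422 kb). Elavl1 at chr8:4285382-4325413, Elavl2 at chr4:91250763-91400785, Elavl3 at chr9:22015005-22052023 and Elavl4 at chr4:110203722-110351909 are all on the minus strand, and Elavl3 is the shortest member at 37.0 kb. Nova1 is at chr12:46694517-46818929 (minus strand) and Nova2 at chr7:18925888-18965319 (plus strand). Per kilobase of span the mean level of Elavl3 in Purkinje was 10.1 CPM, against 3.27 for Rbfox1 in Diff.GABA.interneuron and 1.74 for Rbfox3 in Diff.Granule Neuron. Elavl4 in GABA.interneuron reached 6.38 and Nova2 in Diff.Granule Neuron 3.62. On this scale Elavl3 had the highest peak of the 9 members. Rbfox1 overlaps 1700123O21Rik and Rbfox3 overlaps Gm11749 on the same strand, so reads in the overlaps could have been assigned to either gene.

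Nuclei carry RNA released by other cells, and Immune nuclei (385 in all), which should lack neuronal transcripts, give a measure of it. After each nucleus was thinned to 2000 UMIs, leaving out 98 shallower Immune nuclei and 2637 shallower Diff.Granule Neuron nuclei, a Rbfox3 UMI was found in 18.0% of Immune and 73.5% of Diff.Granule Neuron nuclei (23.0% and 84.3% before thinning, at median depths of 2474 to 2840.5 and 2572 to 3483 UMIs). For Elavl3 these shares were 20.9% and 48.4% (25.2% and 64.8% before thinning). Purkinje, thinned in the same way, had an Elavl3 UMI in 53.1% of nuclei but a Rbfox3 UMI in 10.2%, an Elavl2 UMI in 12.1%, an Elavl4 UMI in 4.8% and a Rbfox1 UMI in 16.5%. The Immune shares of Rbfox1, Elavl2 and Elavl4 were 32.2%, 17.4% and 10.8%. The Purkinje values of Rbfox1, Rbfox3, Elavl2 and Elavl4 were thus at or below those of Immune, on this scale and in mean CPM. So were those of Nova1 in Purkinje (8.65%, 46.9 CPM) and Diff.GABA.interneuron (17.0%, 112 CPM) against Immune (22.7%, 141 CPM). Purkinje nuclei were deeper (median 5653 to 8533 UMIs), and before thinning their shares of Rbfox3 (31.7%) and Elavl2 (30.7%) were above Immune (23.0% and 22.6%). Those of Rbfox1 (33.3%) and Elavl4 (15.0%) were below it (35.8% and 19.8%). Released RNA may be a smaller part of a deeper nucleus, so this comparison cannot show that a gene is absent. Rbfox1 in GABA.interneuron.progenitor (462 CPM) and GABA.interneuron (431 CPM) lay below Immune (503 CPM) in mean CPM with overlapping libraries, but above it in the thinned share (39.7% and 45.4% against 32.2%).

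Each lineage was then followed within each library, from progenitors to differentiated neurons. From GNP to Diff.Granule Neuron, 6 members had a higher and 3 a lower mean, each with 1 sign in all 4 libraries. Rbfox1 was higher in the differentiated neurons by a log2 difference of 0.80 in WT 1, 0.66 in WT 2, 0.66 in Tbx1+/- 1 and 0.70 in Tbx1+/- 2 (0.70 ± 0.07, SD, n = 4). Nova2 (0.40 ± 0.04), Rbfox3 (0.38 ± 0.05), Elavl4 (0.25 ± 0.06) and Rbfox2 (0.24 ± 0.05) were also higher, and Elavl3 differed by 0.04 ± 0.02 log2. Elavl2 was lower by 1.01, 1.07, 1.19 and 1.22 log2 units in WT 1, WT 2, Tbx1+/- 1 and Tbx1+/- 2, a mean of -1.12 ± 0.10. Elavl1 (-0.68 ± 0.09) and Nova1 (-0.35 ± 0.11) were lower too. Within the Elavl family, then, Elavl2 and Elavl4 lay on opposite sides of 0 in this step. In nuclei with at least 2000 detected genes the Elavl3 difference had the other sign (-0.06).

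The GABAergic step gave other values for the same genes. From GABA.interneuron.progenitor to Diff.GABA.interneuron, Rbfox1 differed by 3.08, 3.99, 3.03 and 3.61 log2 units in WT 1, WT 2, Tbx1+/- 1 and Tbx1+/- 2 (3.43 ± 0.46, SD, n = 4). The progenitor mean (462 CPM, 368 to 531 in the 4 libraries) overlapped with that of Immune (503 CPM, 386 to 655). Elavl2, lower in differentiated granule neurons, was here higher by 1.36, 1.81, 1.23 and 1.58 log2 units in the same order (SD 0.25), a 2.82-fold difference. Nova1 was lower by 1.20 on the log2 scale (-1.20 ± 0.21), from 259.5 CPM to 112 CPM, a level whose mean was below that of Immune (141 CPM), and Elavl1 by 0.35 (-0.35 ± 0.19). Rbfox2 (0.45 ± 0.06), Rbfox3 (0.21 ± 0.03) and Elavl4 (0.17 ± 0.04) were higher in all 4 libraries. Elavl3 (0.10 ± 0.15, above 0 in 3 of 4) and Nova2 (0.03 ± 0.15, above 0 in 2 of 4) did not keep 1 sign. The Rbfox3 difference fell to -0.03 in nuclei with at least 2000 detected genes. The annotation has a further type, GABA.interneuron, in which Rbfox1 (431 CPM) was near the progenitor level (462 CPM) while Elavl4 (946 CPM) was above both of the other stages in every library.

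**Figure D3:**
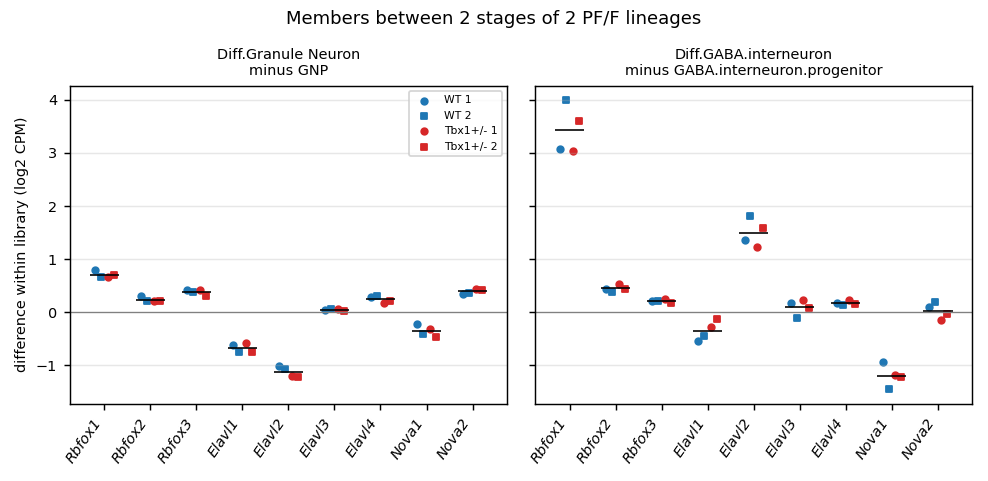
Log2 difference in CPM within a library between differentiated neurons and progenitors of the granule (left) and GABAergic (right) lineage; points are libraries (blue WT, red Tbx1+/-, circles batch 1, squares batch 2), bars are means of 4 and the grey line is 0. Elavl2 lies at -1.12 in the granule step and between 1.23 and 1.81 in the GABAergic step, and Rbfox1 reaches 3.43 in the GABAergic step.

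The genes whose means followed each member most closely over the 16 types were found by Pearson r of log2(CPM + 1) among 8558 genes of at least 50 CPM in 1 type. These r describe 16 type means from the same 4 libraries. Elavl2 and Elavl4 were in each other's 3 nearest genes (r = 0.88). Elavl3 was nearest to Cadps and Bsn, which encode proteins of vesicle priming and of the presynaptic active zone (r = 0.94 for both), and to Soga3 (0.93). Rbfox3 was nearest to Ntn4 (0.94), Gm41505 (0.93) and Kcnj6 (0.92), a potassium channel subunit, and Rbfox1 to Gabra2 (0.78), a GABA-A receptor subunit, Zfpm2 (0.78) and Amph (0.76). For Elavl1 the nearest were CAAA01118383.1, Anp32b and the splicing factor Srsf4 (0.97, 0.97 and 0.96). Rbfox2 was nearest to 1700109K24Rik (0.85), Armcx1 (0.84) and Zfyve9 (0.81), Nova1 to B230217J21Rik (0.92), Hap1 (0.85) and Irx2 (0.84), and Nova2 to Arhgef7 (0.85), Lrp11 (0.84) and Cstf2 (0.81). Rbfox1 and Rbfox3 had r = 0.42, Nova1 and Nova2 r = 0.27, and Elavl1 had a negative r with each of Elavl2, Elavl3 and Elavl4 (-0.24, -0.45 and -0.41).

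In the PTB the annotated skeletal types carried 2 of the members throughout. Rbfox2 was highest in Osteoblasts, with 885 CPM in WT 1, 1031 in WT 2, 967 in Tbx1+/- 1 and 915 in Tbx1+/- 2 (950 ± 64.1, SD, n = 4). Matured osteoblasts/osteocyte (815 ± 71.1 CPM) lay just below without overlap, and Osteoclast, which comes from the blood lineage, was lowest at 306 ± 17.1 CPM. Elavl1 ranged over 107 to 136 CPM with every step overlapping. Rbfox1 was uneven: CT2 (688 ± 170 CPM) and CT4 (644 ± 99.8 CPM), 2 of the study's 4 connective-tissue subtypes, overlapped at the top, CP6 (384 ± 41.2 CPM) followed without overlap, and Osteoclast had 53.8 ± 19.6 CPM. In CT2 the markers of choroid plexus and leptomeninges, Ttr and Ptgds, summed to 2274 to 4681 CPM by library. Over all annotated PTB nuclei they summed to 323 to 487 CPM. Their part in the Rbfox1 level of CT2 was not tested. Nova1 was highest in CP3 with 98.5 to 130 CPM in the 4 libraries (108 ± 14.6), and CP6 (48.6 ± 14.6 CPM) followed without overlap. Rbfox3, Elavl2, Elavl3, Elavl4 and Nova2 had means of at most 18.8 CPM in every annotated PTB type.

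The paper names neurons and immune cells among its bone nuclei. The deposited annotation holds only the connective-tissue, chondrocyte, osteoblast and osteoclast types. Most PTB UMIs of Rbfox1, Rbfox3, Elavl2, Elavl3 and Elavl4 came from barcodes that this annotation does not hold. The same was true of Nova1 and Nova2, with 32.7 to 46.9% and 10.4 to 12.4% of their UMIs in annotated nuclei. Of the UMIs of all genes, annotated nuclei held 43752949 of 88677309 in WT 1 and 33515253 of 67337451 in WT 2. They held 40564592 of 76311111 in Tbx1+/- 1 and 34973379 of 66835028 in Tbx1+/- 2. The highest Nova1 share, 46.9%, was that of WT 1. In the PTB, 314 barcodes of WT 1, 414 of WT 2, 272 of Tbx1+/- 1 and 389 of Tbx1+/- 2 outside the annotation had at least 3 UMIs of 10 neuron markers and more than of any other marker list. They were 1389 in all, with median depths of 8203 to 11062 UMIs. They held 60.7 to 73.3% of all Elavl3 UMIs of a PTB library, and 60.9 to 78.5% of Elavl2, 58.8 to 77.4% of Elavl4, 54.4 to 69.1% of Rbfox1 and 47.7 to 63.2% of Rbfox3 UMIs, with 4.1 to 7.6% of the UMIs of all genes. They held a smaller part of the Nova UMIs (11.8 to 24.1% of Nova1 and 17.7 to 33.0% of Nova2), and 3.1 to 6.1% of Rbfox2 and 2.6 to 5.7% of Elavl1 UMIs. The barcodes were chosen by the neuron list, so its high sum there follows from the choice (6326 to 7525 CPM, against 281 to 373 CPM in annotated PTB nuclei). The choice also kept every other list below it in each barcode. All 10 genes of the neuron list were detected in each library. The skeletal list summed to 1277 to 1740 CPM in these barcodes against 8770 to 11156 CPM in annotated nuclei. The list of Schwann and satellite glia summed to 226 to 482 CPM. The cerebellar granule lineage list was at 82.5, 164, 59.5 and 144 CPM in WT 1, WT 2, Tbx1+/- 1 and Tbx1+/- 2 (41.6 to 53.9 CPM in annotated nuclei). In the same order Prph of the neuron list stood at 260, 73.3, 145 and 20.6 CPM, and Snap25 at 399, 427, 476 and 438 CPM. Whether the barcodes hold the same neurons in each library, and the part of these lists in the levels and genotype changes, was not tested. No member was used to sort the barcodes.

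In these neuron-marker barcodes Rbfox1 stood at 4470, 5355, 4925 and 4969 CPM in WT 1, WT 2, Tbx1+/- 1 and Tbx1+/- 2 (4930 ± 362, SD, n = 4), a range inside that of differentiated GABAergic interneurons of the PF/F. Elavl4 (645 ± 128 CPM) lay between its means in GABA.interneuron and Progenitors of the PF/F, Elavl2 stood at 604 ± 124 CPM, and Elavl3 (275 ± 16.9 CPM) was below its means in those 7 PF/F types. Rbfox3 had 172 ± 25.1, Nova1 74.7 ± 14.7 and Nova2 60.5 ± 11.3 CPM. The fold of these barcodes over the annotated nuclei of the same library was 68.0 to 102 for Elavl3, 40.9 to 81.7 for Rbfox3, 29.7 to 38.9 for Rbfox1 and 3.0 to 5.3 for Nova1. Rbfox2 and Elavl1 were lower in these barcodes than in annotated nuclei of every library (0.62 to 0.70 and 0.62 to 0.77 times). Per kilobase of gene span the mean level of Elavl4 was 4.35 CPM and that of Rbfox3 0.41 CPM in these barcodes, where Diff.Granule Neuron had 1.09 and 1.74 CPM.

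**Figure D4:**
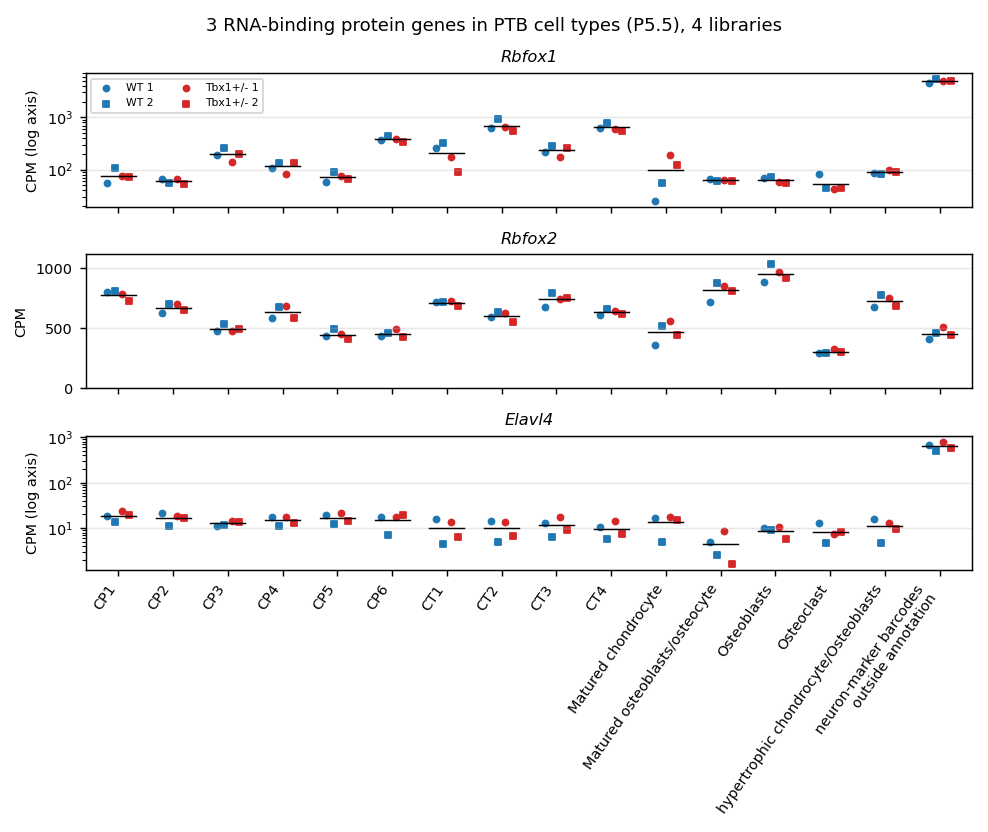
CPM of Rbfox1 and Elavl4 (log axes) and Rbfox2 (linear axis from 0) in the 15 annotated PTB types and in the neuron-marker barcodes outside the annotation; points are libraries (blue WT, red Tbx1+/-, circles batch 1, squares batch 2) and bars the means of 4. Rbfox1 and Elavl4 are highest in the neuron-marker barcodes (4930 and 645 CPM) and Rbfox2 in Osteoblasts (950 CPM).

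The genotypes were compared within each type on UMIs summed per library, by edgeR's quasi-likelihood test with Benjamini-Hochberg adjustment over all genes of the fit. The question was whether loss of 1 copy of Tbx1 went with other levels of these genes. The term called is used for genes that differed over 1.5-fold with an adjusted p below 0.05. With 2 libraries against 2, an exact permutation test of a single value cannot go below p = 0.33. Where the genotypes do not differ, a value lacks overlap between them with that same probability. This also holds for the marker lists given below, so a lack of overlap alone shows no difference.

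In the PF/F none of the 9 members was called in any of the 13 types with at least 30 nuclei in every library. All 117 member tests passed the filter on low counts. Over all genes of these fits 0.00064% of tests were called (1 of 156309). At an unadjusted p under 0.05 there was 1 of the 117 member tests (DESeq2 gave 0), against 1.31% of all gene tests. With the batch as a block there were 5, against 4.39% of all gene tests, and 4 of the 5 were higher in Tbx1+/-: Rbfox1 in Diff.Granule Neuron (log2 change 0.10), Purkinje (0.26) and RL.early (0.58), and Rbfox3 in Immune (0.58). These 4 are named here after their values were seen, and none was called. After thinning, a Rbfox1 UMI was found in 16.5% of Purkinje and 23.5% of RL.early nuclei, below the 32.2% of Immune, and in 80.2% of Diff.Granule Neuron nuclei. Immune is itself the measure of released RNA used above. The part of released RNA in these changes was not tested. The test that passed without the block was Elavl3 in Meningeal, with 121 and 103 CPM in WT and 71.7 and 75.6 CPM in Tbx1+/- libraries (52 to 67 UMIs each, log2 change -0.60 ± 0.26 SE, edgeR unadjusted p = 0.039, adjusted p = 1.00). After thinning, an Elavl3 UMI was found in 13.5% of Meningeal nuclei, below the 20.9% of Immune. The neuron list summed to 1529 and 1233 CPM in WT and 1297 and 1191 CPM in Tbx1+/- Meningeal nuclei. The list of choroid plexus and leptomeninges was higher in Tbx1+/- within both batches (1734 and 2534 CPM in WT 1 and Tbx1+/- 1, 350 and 1214 CPM in WT 2 and Tbx1+/- 2). Of 11 marker lists 2 did not overlap between the genotypes there, erythroid (275 and 271 CPM in WT, 499 and 377 CPM in Tbx1+/-) and hair cell (10.8 and 11.9 against 5.41 and 8.68 CPM). The part of these lists in the value was not tested.

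In the tested PF/F types where their means were highest, the fitted changes of the members between genotypes were small. Rbfox3 in Diff.Granule Neuron averaged 720 CPM in WT and 748 in Tbx1+/- (log2 change 0.07 ± 0.18 SE). Rbfox1 in Diff.GABA.interneuron averaged 4988 and 4991 CPM (0.01 ± 0.42), Rbfox2 493 and 502 CPM (0.04 ± 0.23) and Elavl2 902 and 839 CPM (-0.10 ± 0.29). For Elavl4 in GABA.interneuron the change was -0.01 ± 0.25, for Elavl3 in Purkinje -0.04 ± 0.22, for Elavl1 in GNP 0.02 ± 0.15, for Nova1 in Oligodendrocyte -0.05 ± 0.29 and for Nova2 in Diff.Granule Neuron 0.07 ± 0.14. The standard errors ranged from 0.14 (Nova2) to 0.42 (Rbfox1) log2 units, and none of the 9 changes was larger than its own. These fits had no batch term, so the errors include the difference between batches. They do not measure the spread of the change within batches.

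The other RNA-binding protein genes examined beside them gave no call either. Of 21 splicing regulators (the Ptbp, Celf, Mbnl and Khdrbs families among them) 19 were tested in at least 1 PF/F type, and 1 of 225 tests had an unadjusted p under 0.05, lower in Tbx1+/- (0.444%). Of 24 regulators of stability and translation (among them Msi, Fmr1, Cpeb, Pum and Igf2bp genes) all 24 were tested, with 2 of 276 tests, both higher (0.725%). Over all genes of these fits the share was 1.31%. Their median log2 changes over types were 0.01 and -0.02. In Diff.Granule Neuron the pairs with the smallest p of each list were Ptbp3 (log2 change 0.20 ± 0.14 SE) and Celf3 (-0.17 ± 0.13), and Khsrp (-0.10 ± 0.12) and Igf2bp1 (-0.17 ± 0.21), each at an adjusted p of 1.00 by edgeR with Benjamini-Hochberg adjustment. With the batch as a block, Khdrbs2, a splicing regulator of the Sam68 family, was called lower in Meningeal (log2 change -1.003 ± 0.24 SE, edgeR adjusted p = 0.014), where 0.24% of the genes of this type were called (24 of 10002).

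In the PTB 96 of the 135 combinations of member and type passed the filter, and in the edgeR fit without the batch none was called, as was 0% of the 187198 tests of all genes. At an unadjusted p under 0.05 there were 6 member tests (6.25%, DESeq2 2), 3 higher and 3 lower in Tbx1+/-, against 1.81% of all tests. Of these 6, Rbfox1 accounted for 3, in Matured chondrocyte, CT1 and Osteoblasts. With the batch as a block 2 member tests were called, both of Rbfox1, against 0.0379% of all tests, and 8 had an unadjusted p under 0.05 (3 higher, 5 lower), against 3.93% of all tests.

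In Matured chondrocyte Rbfox1 had 25.04 CPM in WT 1, 55.8 in WT 2, 192 in Tbx1+/- 1 and 125 in Tbx1+/- 2, on 12, 23, 32 and 107 UMIs. Both Tbx1+/- libraries lay above both WT libraries, by 2.94 log2 units in batch 1 and 1.16 in batch 2. The change was 1.91 ± 0.39 log2 units (SE, edgeR unadjusted p = 2.6e-04, adjusted p = 1.00), and with the batch as a block 1.88 ± 0.32 (adjusted p = 1.5e-05), where 0.233% of the genes of this type were called. Rbfox1 was also called in edgeR without the filter on low counts (adjusted p = 3.9e-04), where 0.0526% of genes were called. These errors and p-values draw on the spread of all genes of a fit. They do not measure how far the changes of the 2 batches lay apart. Leaving out 1 library gave 1.43 log2 units without WT 1, 1.68 without Tbx1+/- 1, 2.56 without WT 2 and 2.28 without Tbx1+/- 2. The last 3 of these fits called Rbfox1, with 0.156%, 0.0676% and 0.157% of genes called, but in each of them 1 genotype is a lone library that is assumed to vary like the other genotype, so these calls are no further support. The type held 147, 138, 48 and 254 nuclei in WT 1, WT 2, Tbx1+/- 1 and Tbx1+/- 2, and a Rbfox1 UMI was found in 8.16%, 10.1%, 41.7% and 16.9% of them. After thinning to 2000 UMIs the share over the 4 libraries was 15.2% (4.2 to 32.5% by library, median depth 2339 to 2962.5 UMIs, 144 shallower nuclei left out), against 5.48% in Osteoclast (median depth 4963 to 7105 UMIs), the PTB type with the lowest Rbfox1 level. The neuron list was at 275, 269, 246 and 285 CPM in the same order (2 of its 10 genes at 0 in Tbx1+/- 1) and the muscle list at 179, 58.3, 569 and 37.4 CPM, while the erythroid list was at 13323 CPM in WT 2 and 935 to 1198 CPM in the others. The hair cell list was the 1 of 11 lists whose genotypes did not overlap (12.5 and 21.8 CPM in WT, 65.9 and 30.4 CPM in Tbx1+/-). It was higher in Tbx1+/-, like Rbfox1, but 2 of its 5 genes were at 0 in WT 1 and 1 in WT 2. Rbfox1 stood at 907 ± 156 CPM (SD, n = 4) in the 185 PTB barcodes outside the annotation that were led by hair cell markers. In the 263 led by muscle markers it stood at 803 ± 87.6 CPM. The muscle list was higher in Tbx1+/- in batch 1 and lower in batch 2. The endothelial list (31.3 and 47.9 CPM in WT 1 and Tbx1+/- 1, 51.0 and 78.3 CPM in WT 2 and Tbx1+/- 2) and the list of choroid plexus and leptomeninges (330 and 396, 403 and 718 CPM) were also higher in Tbx1+/- within both batches. The part of these lists was not tested.

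In CT1 the direction was the opposite. Rbfox1 had 254 CPM in WT 1, 323 in WT 2, 177 in Tbx1+/- 1 and 89.2 in Tbx1+/- 2, on 1298, 507, 594 and 42 UMIs, without overlap between the genotypes. The change was -1.02 ± 0.27 log2 units (SE, edgeR unadjusted p = 0.0030, adjusted p = 1.00), and with the batch as a block -1.03 ± 0.19 (adjusted p = 0.0011), where 0.104% of the genes of CT1 were called. As in Matured chondrocyte, these errors draw on the spread of all genes and do not measure how far the batches lay apart. The UMIs were unevenly spread over nuclei, and the 5% of nuclei with most Rbfox1 UMIs held 68.0%, 77.7%, 67.5% and 40.5% of them in WT 1, WT 2, Tbx1+/- 1 and Tbx1+/- 2. In WT 2 a single nucleus had 219 of the 507, and without it that library stood at 183 CPM, still above both Tbx1+/- libraries. The share of nuclei with a Rbfox1 UMI was 26.1%, 25.9%, 21.8% and 26.3%. Without the 8% of nuclei with most UMIs the change was -0.63 ± 0.28, and leaving out 1 library gave -1.19 ± 0.27 without WT 1, -0.84 ± 0.24 without WT 2, -1.72 ± 0.29 without Tbx1+/- 1 and -0.71 ± 0.27 without Tbx1+/- 2, which had 118 CT1 nuclei. The neuron list was at 304, 230, 269 and 206 CPM and the muscle list at 186, 52.8, 234 and 38.2 CPM in WT 1, WT 2, Tbx1+/- 1 and Tbx1+/- 2. Of the 11 lists 4 did not overlap between the genotypes. The endothelial list (48.6 and 47.7 CPM in WT, 74.6 and 57.3 CPM in Tbx1+/-) and that of choroid plexus and leptomeninges (283 and 242 against 293 and 359 CPM) were higher in Tbx1+/-, and the immune list (93.7 and 96.7 against 92.1 and 82.8 CPM) and the hair cell list (18.2 and 19.1 against 16.9 and 12.7 CPM) were lower. Within both batches the neuron list was lower in Tbx1+/-, like Rbfox1, and the Schwann and satellite glia list was higher (253 and 372, 167 and 236 CPM). The part of these lists was not tested.

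The other 4 PTB tests at an unadjusted p under 0.05 rested on smaller changes or fewer UMIs. Rbfox1 in Osteoblasts, a type of 5813 nuclei, had 69.5 and 71.5 CPM in WT and 58.7 and 55.03 CPM in Tbx1+/- (log2 change -0.32 ± 0.11 SE, edgeR unadjusted p = 0.023, adjusted p = 1.00). Nova2 in CP4 rested on 6 to 17 UMIs per library (1.19 ± 0.46), Elavl3 in CT1 on 3 to 26 (1.13 ± 0.50) and Elavl2 in CT2 on 11 to 29 (-1.03 ± 0.43), each with an adjusted p of 1.00 by edgeR. Of the 11 marker lists 1 did not overlap between the genotypes in Osteoblasts (choroid plexus and leptomeninges, 202 and 169 CPM in WT, 244 and 295 CPM in Tbx1+/-), where the skeletal (20098 and 14237, 14151 and 13612 CPM in WT and Tbx1+/- of each batch), erythroid (820 and 659, 490 and 438 CPM) and epithelial lists (53.7 and 45.4, 38.8 and 35.3 CPM) were lower in Tbx1+/- within both batches, like Rbfox1, and the Schwann and satellite glia, immune and cerebellar granule lineage lists were higher. The count was 1 in CT2 (cerebellar granule lineage, 127 and 132 against 115 and 117 CPM) and 2 in CP4 (endothelial, 63.1 and 62.8 against 59.3 and 55.2 CPM, and choroid plexus and leptomeninges, 233 and 194 against 271 and 308 CPM). Within both batches the muscle list was also lower in Tbx1+/- in CT2, like Elavl2 (289 and 164, 49.5 and 35.5 CPM), where the immune, endothelial and erythroid lists were higher. In CP4 the Schwann and satellite glia (237 and 294, 129 and 141 CPM) and immune lists (84.3 and 89.9, 67.7 and 76.6 CPM) were higher within both batches, like Nova2, and the muscle and erythroid lists were lower. The part of these lists was not tested. In their highest PTB types the changes were -0.04 ± 0.12 for Rbfox2 in Osteoblasts, 0.15 ± 0.11 for Elavl1 in hypertrophic chondrocyte/Osteoblasts, -0.39 ± 0.23 for Rbfox1 in CT2 and -0.18 ± 0.18 for Nova1 in CP3. Those of Elavl4 in CP1 (0.40 ± 0.24), Nova2 in CP5 (0.95 ± 0.48) and Rbfox3 in CP5 (0.27 ± 0.45) were at levels of under 24 CPM, and Elavl2 and Elavl3 did not pass the filter in Matured chondrocyte, their highest type.

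In the neuron-marker barcodes outside the PTB annotation, fitted in the same way after these data had been seen, none of the 9 members was called or had an unadjusted p under 0.05, against 1.04% of the 15523 genes tested there. Rbfox1 changed by 0.01 ± 0.25 log2 units (SE), Elavl4 by 0.24 ± 0.25, Elavl2 by 0.15 ± 0.26 and Elavl3 by 0.11 ± 0.17 in that edgeR fit.

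**Figure D5:**
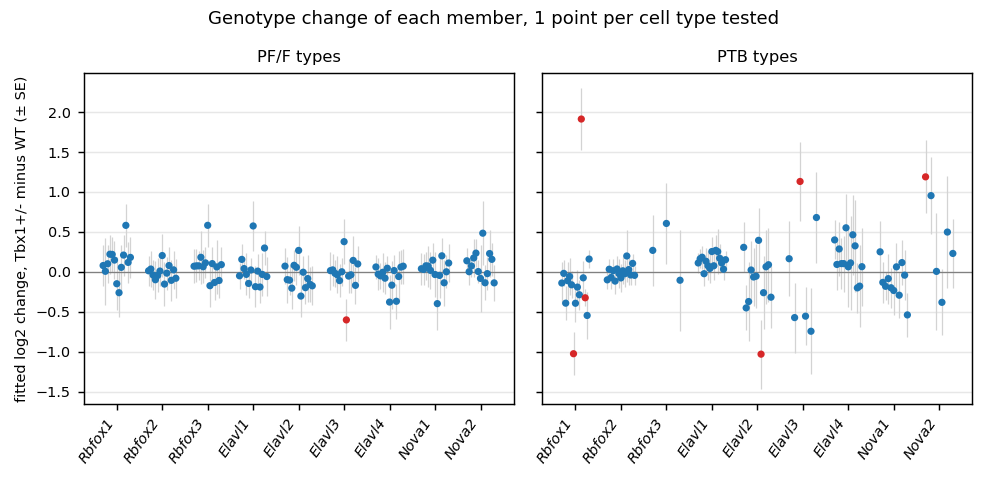
Fitted log2 change (Tbx1+/- minus WT, bars are SE) of each member in each type tested, 13 PF/F types on the left and 15 PTB types on the right; red points have an unadjusted p under 0.05 and no point was called after adjustment. The PF/F changes lie between -0.60 and 0.58, and the 2 extreme Rbfox1 points on the right are Matured chondrocyte (1.91) and CT1 (-1.02).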

How the data were processed

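Per the labels, nuclei were isolated from frozen PF/F and PTB and sequenced with 10x chemistry. The authors made the deposited UMI counts with Cell Ranger 7.0.0 in intron mode on mm10. The counts are raw, without the authors' SoupX correction. Cell types came from the authors' Louvain clustering, label transfer and curation. No doublet removal is described. Counts were summed per library and type, and groups came from the labels. Library totals are given above, and shares of nuclei cover counting error only. The members and gene lists were chosen with earlier results of these data known. Genotype fits used edgeR 4.0.16 (TMM, filterByExpr) in R 4.3.3, with DESeq2 1.42.0 as an alternative; Python 3.11.15 computed levels. The fits were tested on simulated data. Fit values were named for each member in its highest type per tissue, among types with at least 30 nuclei in every library. They were also named wherever the unadjusted p was under 0.05. The 3 most similar genes per member were named too. The replicate number was read as the batch, which the labels do not state. Same-numbered libraries deviated together (r = 0.84 in the PF/F and 0.58 in the PTB). Replicates were pools. The p-values rest on the spread between pools, which edgeR estimates for each gene with the help of all other genes of the fit. With so few libraries they are not a measure of the spread of 1 gene alone. Alternatives were RLE scaling, DESeq2, no filter on low counts, a replicate block, nuclei of at least 2000 detected genes, leaving out the 8% of nuclei with most UMIs, and leaving out each library. Endothelial, Pericyte and Progenitors of the PF/F had under 30 nuclei in a library and were not tested. Levels in 2 of the 16 PF/F types are not reported here.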

Additional observations from a re-analysis of the deposited data

Results flagged for a closer look

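The genotype effect on Rbfox1 differed between 2 types of the PTB. It was higher in both Tbx1+/- libraries in Matured chondrocyte and lower in both in CT1. In an edgeR fit over both types with library as a block, chosen after the data had been seen, the effect in Matured chondrocyte minus that in CT1 was 3.21 ± 0.39 log2 units (SE, 4 libraries, adjusted p = 1.5e-05 over 10223 genes), and Rbfox1 was the 1 gene called. Both types were picked for their Rbfox1 values, so this p does not stand as independent support. Over the 15 PTB types the fitted change of Rbfox1 was above 0 in 2, with a median of -0.16 log2 units. Over all annotated PTB nuclei Rbfox1 stood at 144 and 180 CPM in WT and 127 and 129 CPM in Tbx1+/- libraries. Its level differed between types, so this value also depends on how many nuclei of each type a library held. The part of cell composition in it was not tested. With the batch as a block, Rbfox1 was also lower at an unadjusted p under 0.05 by edgeR in CP3 (-0.40) and Osteoclast (-0.50). Of all PTB tests 3.93% had such a p. Groups of 2 libraries are too small to look for a single library far from the others.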

How the results depend on the processing

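Of 227 alternative fits of the 23 named genotype changes, 199 kept their direction and their side of the threshold. The PF/F count of members called was 0 under every alternative. The PTB count, 0 in the fit reported, was 2 with no filter on low counts and 2 with the replicate block, Rbfox1 in CT1 and in Matured chondrocyte each time, and 0 to 1 without single libraries. The count of other RNA-binding protein genes called in the PF/F was 1 with the replicate block and 0 to 1 without single libraries. The block changed no other call of a member. Over all genes, calls in the PF/F numbered 1 in the fit reported, 60 with the block, 30 with no filter and 2 by DESeq2, and in the PTB 0, 71, 96 and 0. Without single libraries they ranged from 19 to 235 in the PF/F and from 29 to 613 in the PTB, each time most without WT 1. The cause of these changes was not tested.

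Changes near 0 turned their sign. Without the 8% of nuclei with most UMIs, Rbfox1 in Diff.GABA.interneuron was at -0.0055, Elavl4 in GABA.interneuron at 0.087 and Rbfox3 in CP5 at -0.017 log2 units. In nuclei with at least 2000 detected genes Elavl1 in GNP was at -0.068. Without single libraries the ranges were -0.34 to 0.20 for Elavl2, -0.11 to 0.20 for Rbfox2 and -0.26 to 0.34 for Rbfox1 in Diff.GABA.interneuron. They were -0.0096 to 0.15 for Nova2 in Diff.Granule Neuron, -0.18 to 0.20 for Elavl4 in GABA.interneuron and -0.061 to 0.10 for Elavl1 in GNP. They were -0.32 to 0.29 for Nova1 in Oligodendrocyte, -0.17 to 0.10 for Elavl3 in Purkinje and -0.35 to 0.029 for Nova1 in CP3. Rbfox3 in CP5 ranged from -0.43 to 0.73 and Rbfox2 in Osteoblasts from -0.15 to 0.059. Other changes kept their sign but moved: -0.65 to -0.054 for Rbfox1 in CT2, 0.40 to 1.51 for Nova2 in CP5, -1.38 to -0.57 for Elavl2 in CT2, 0.88 to 1.51 for Elavl3 in CT1, 0.23 to 0.66 for Elavl4 in CP1, 0.016 to 0.13 for Rbfox3 in Diff.Granule Neuron, -1.72 to -0.71 for Rbfox1 in CT1 and 1.43 to 2.56 for Rbfox1 in Matured chondrocyte.

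Of 126 alternative values of the lineage differences, 111 moved by less than the SD over libraries. As a mean over nuclei of their own CPM, the granule difference was 0.45 for Rbfox3, -1.01 for Elavl2, 0.12 for Elavl3 and 0.50 for Nova2, and the GABAergic difference 0.58 for Rbfox2 and 0.33 for Rbfox3. In nuclei with at least 2000 detected genes the granule differences were 0.26, -1.24, -0.056 and 0.18, and the GABAergic ones 0.24 and -0.026. Without the 8% of nuclei with most UMIs the GABAergic differences were 0.55 for Rbfox2, 0.31 for Rbfox3 and 1.24 for Elavl2. Of 127 alternative levels 119 stayed within the SD.

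With 2 pools per genotype the fits had few degrees of freedom, and levels of neuronal members in annotated PTB nuclei rest on few UMIs. Doublets were not removed. The alternative without the 8% of nuclei with most UMIs is no doublet control, since it also takes nuclei from deep types. In Purkinje the genes tested fell from 12851 to 9094.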
